A study of Mus musculus with 18 samples.

Results

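The genes described here are 10 members of 3 families of small LIM-domain proteins: the FHL genes Fhl1, Fhl2, Fhl3 and Fhl5, the CSRP (cysteine and glycine-rich protein) genes Csrp1, Csrp2 and Csrp3, and the PDLIM (PDZ and LIM domain) genes Pdlim1, Pdlim5 and Pdlim7. They were taken by Ensembl identifier from a count table of 32286 entries in 18 mRNA libraries. Of the 10, 9 were among the 17841 genes with enough counts to test, and Csrp3 was not. The libraries came from a pair of cell lines of mouse mammary carcinoma, AT-3 and E0771, each carrying the retroviral vector pRetroX. In each line the vector was empty, held wild-type MRTFA, or held the Y238A form of MRTFA, described by the submitters as poor at binding SRF. Every group, the empty-vector controls included, received doxycycline at 2 µg/ml for 48 h to switch on the vector, and each of the 6 groups had 3 libraries. The study asked what the binding of MRTFA to SRF does to the stiffness of cancer cells. The labels do not say whether a line carrying a construct was 1 clone or a pool, or whether the 3 replicate sets were separate cultures, so p-values measure the spread between these libraries, which may be technical.

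A LIM domain is a zinc-binding fold that holds proteins together, and proteins made mostly of LIM domains act as adaptors on actin filaments, focal adhesions and muscle Z-discs, with some of them also entering the nucleus. FHL proteins bind integrins, actin regulators and transcription factors. CSRP proteins bind alpha-actinin and zyxin, and PDLIM proteins bind alpha-actinin through their PDZ domain. MRTFA is a coactivator that leaves G-actin and enters the nucleus when actin polymerises, where it binds SRF, a transcription factor that recognises the CArG box, a 10-base motif of a pair of C, 6 bases that are each A or T, and a pair of G.

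Levels are in CPM, a gene's count relative to the TMM-scaled total of its library, given as the values of replicates 1, 2 and 3 or as mean ± SD (n = 3). Changes are log2 fold changes ± SE from edgeR's quasi-likelihood test fitted to the 18 libraries together, and a gene is said to have risen or fallen where its Benjamini-Hochberg adjusted p over the 17841 genes was under 0.05. Library totals ran from 81265466 to 115260128 counts. The counts entry named MRTFA, taken to be the construct, checked the labels: it was at 0.0160 CPM in AT-3 and 0.0736 CPM in E0771 with empty vector, at 5434 ± 1444 and 761 ± 91.1 CPM with wild type, and at 2104 ± 195 and 320 ± 37.4 CPM with Y238A. The Y238A construct was thus measured below the wild-type one in both lines, and the part of this gap in the results below was not tested. In some libraries, genes that were high in another group were raised, and the size of this is called carry-over here, as a name for the measure; where the transcripts came from was not tested. For E0771 libraries it is the median, over 240 genes that E0771 barely expressed, of the percentage of the AT-3 level. It was 1.35% in replicate 2 of the E0771 empty-vector group, 0.508% in replicate 2 of wild type and 0.269% in replicate 1 of Y238A, and 0.0616% or less in the 6 others. Over 27 genes of AT-3 with wild type, AT-3 Y238A replicate 1 held 1.33% of the wild-type level and replicates 2 and 3 held 0.270% and 0.111%. Replicate 1 of AT-3 with Y238A and the 3 E0771 libraries first named are called the 4 of highest carry-over. Values without them are given beside the results they moved. AT-3 Y238A replicate 2, at 0.270% by the other measure, was level with E0771 Y238A replicate 1 and was kept. AT-3 libraries with empty vector or wild type were not measured. By the chi-square of counts between replicates, replicate 1 of AT-3 with wild type and replicate 2 of E0771 with Y238A were the least like the others of their groups.

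With wild-type MRTFA, Fhl2, Csrp1, Pdlim5 and Pdlim7 rose 2.91-fold to 6.40-fold in both lines and Fhl1 rose in both, while Fhl3, Csrp2 and Pdlim1 fell in AT-3. In E0771 Fhl3 and Csrp2 rose, and Pdlim1 did not pass the test. In AT-3 against empty vector, 6 of the 9 tested members rose and 3 fell, where 68.6% of all tested genes were called (36.4% higher and 32.2% lower, or 6497 and 5743 genes, against 5668 and 6913 with library totals in place of TMM scaling and 4533 and 5579 with a stricter filter). In E0771, 8 of 9 rose and 0 fell, where 24.5% of all tested genes were called (11.2% higher and 13.3% lower). Fhl5, 1 of the 8, had too few counts to be tested with E0771 fitted alone, where 7 members rose. The median log2 fold change of the 9 members was 2.06 in AT-3 and 1.85 in E0771, beside 0.07 and -0.05 over all tested genes. With Y238A, 0 members rose and 5 fell in AT-3, where 43.7% of all tested genes were called (21.4% higher and 22.2% lower), and 0 rose and 1 fell in E0771, where 12% were called (5.41% higher and 6.64% lower, or 965 and 1184 genes, against 1176 and 817 with library totals). Counted by groups that did not overlap, 9 tested members were set apart with wild type in AT-3 (74.5% of all tested genes), 7 with Y238A in AT-3 (56.9%), 7 with wild type in E0771 (41.5%) and 2 with Y238A in E0771 (26.1%). The wild-type and Y238A comparisons of a line share its 3 empty-vector libraries.

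**Figure D1:**
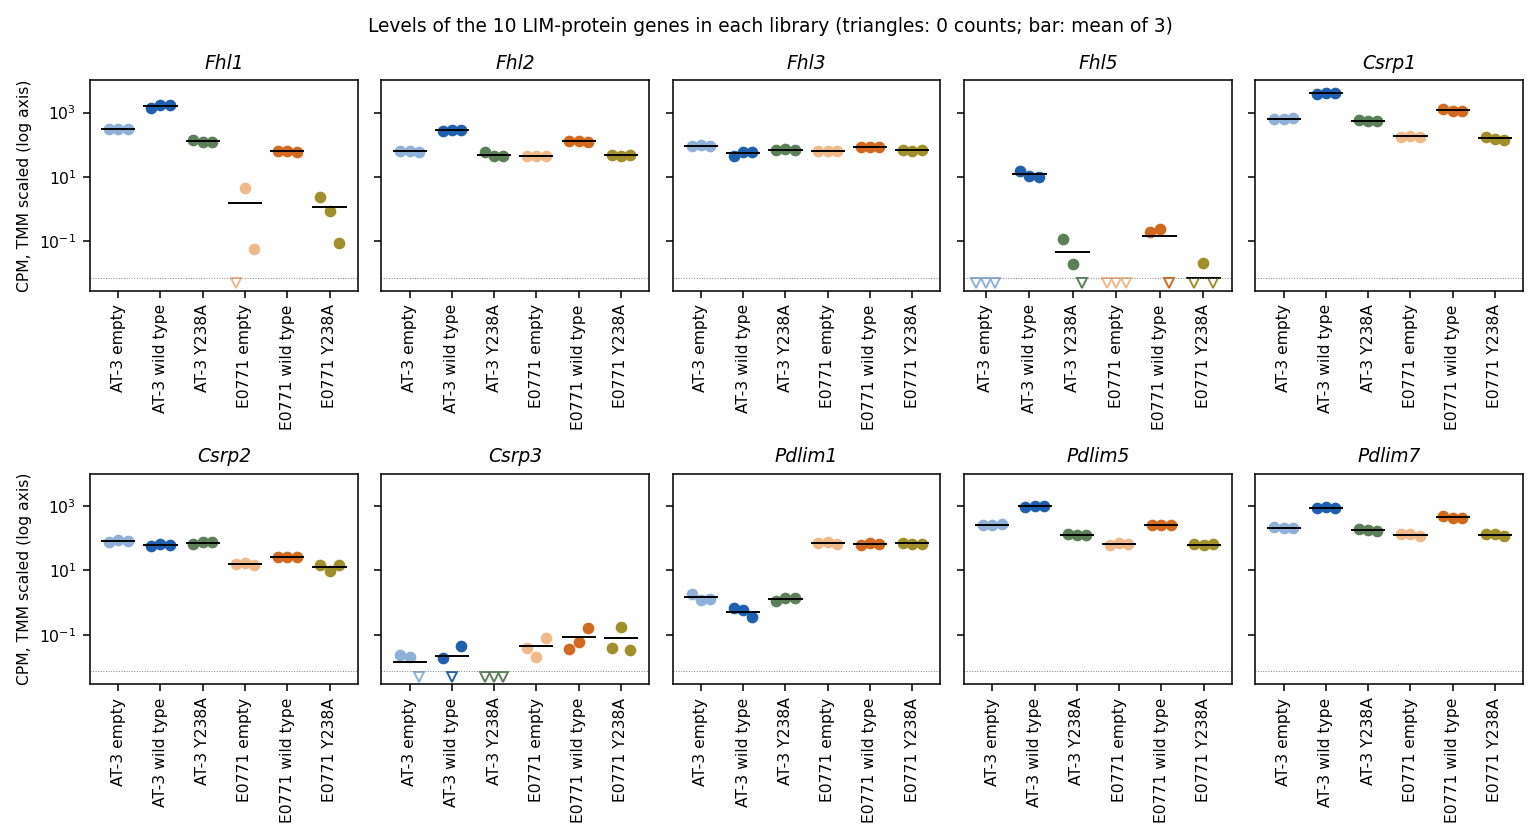
Level of each of the 10 genes in each of the 18 libraries, in CPM on a log axis; each point is 1 library, the bar is the mean of 3, and open triangles below the dotted line are libraries with 0 counts. The AT-3 wild-type libraries hold 3655 to 4041 CPM of Csrp1, Pdlim1 is under 2 CPM in all AT-3 libraries, and Fhl1 is spread from 0 to 4.62 CPM in E0771 with empty vector.

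Fhl1, which encodes an adaptor of sarcomeres and adhesions in striated muscle (Ensembl ENSMUSG00000023092, GRCm38 chrX:56731787-56793346, plus strand), varied most of the tested members over the 6 groups on the log2 scale. In AT-3 it was at 318, 316 and 309 CPM with empty vector, 1425, 1692 and 1663 CPM with wild type and 144, 123 and 125 CPM with Y238A. The 3 AT-3 groups did not overlap, and each Y238A library lay below each control. In E0771 Fhl1 was at 0, 4.62 and 0.0588 CPM with empty vector, 62.0, 64.9 and 61.1 CPM with wild type and 2.47, 0.868 and 0.0916 CPM with Y238A. The E0771 wild-type libraries stood above the 6 others, whose levels differed widely among replicates of 1 group and overlapped between groups. The E0771 empty vector replicate 2 value came from 439 counts and was 1.47% of the AT-3 empty-vector level. The carry-over in that library was 1.35%. E0771 Y238A replicates 1 and 2 held 260 and 80 counts, 1.89% and 0.665% of the AT-3 Y238A level. The carry-over there, by the same reference, was 0.269% and 0.0616%. Fhl1 was higher in AT-3 with wild type, which was not used as a reference. Where these counts came from was not tested.

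With wild-type MRTFA, Fhl1 rose in AT-3 by 2.34 ± 0.69 on the log2 scale (adjusted p 0.00854) and, in E0771, by 5.37 ± 0.88 (adjusted p 6.08e-04). Leaving out the 4 carry-over libraries, these changes were 2.34 ± 0.19 and 10.98 ± 0.52. Without E0771 empty vector replicate 2 alone the E0771 change was 11.01. Either way the controls left were replicates 1 and 3, with 0 and 6 counts of Fhl1. Fhl1 values without that library, here and below, rest on these counts near the floor, so their size is uncertain. The test pools the spread over both lines, and with AT-3 fitted alone the SE of the AT-3 change was 0.07 in place of 0.69. With Y238A in AT-3 the change was -1.27 ± 0.67 and did not pass (adjusted p 0.151), whereas it was -1.26 ± 0.07 (adjusted p 4.15e-09) with AT-3 fitted alone and -1.35 ± 0.22 (adjusted p 5.12e-04) without the 4 libraries. With Y238A in E0771 it was -0.34 ± 1.07 (adjusted p 0.907), but 5.29 ± 1.41 (adjusted p 0.048) without empty vector replicate 2 and 4.01 ± 1.12 (adjusted p 0.0751) without the 4 libraries. Wild type stood above Y238A by 3.61 ± 0.72 in AT-3 and 5.71 ± 0.90 in E0771, the latter 7.0 ± 1.18 without Y238A replicate 1.

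Fhl2, whose product carries signals between adhesions and the nucleus and is best known in heart and smooth muscle (ENSMUSG00000008136, chr1:43123074-43196984, minus strand), was at 66.2, 65.2 and 61.6 CPM in AT-3 with empty vector, 276, 289 and 286 CPM with wild type and 58.2, 44.7 and 44.8 CPM with Y238A. In E0771 it was at 43.7, 45.1 and 43.9 CPM with empty vector, 135, 127 and 124 CPM with wild type and 47.2, 44.6 and 47.3 CPM with Y238A. The wild-type libraries were high in both lines, and the Y238A libraries lay below the controls in AT-3 and overlapped them in E0771. Fhl2 rose with wild type by 2.14 ± 0.07 (adjusted p 1.44e-15) in AT-3 and 1.54 ± 0.07 (adjusted p 2.17e-12) in E0771. It fell by 0.39 ± 0.07 with Y238A in AT-3 (adjusted p 1.66e-04). There replicate 1 was the highest and, within its group, the library of highest carry-over. The part of carry-over in this level was not tested. In E0771 the Y238A change was 0.07 ± 0.07 (adjusted p 0.603).

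Since SRF binds CArG boxes, the start-site windows of the members were searched for one. RefSeq windows of GRCm38.p6, from 250 bases before to 50 bases after a gene start, were at hand for 9 of the 10 members (15 windows, for all but Csrp2), and the CArG box reads the same way on both strands. An exact box was found in 3 windows of 2 members, Fhl1 and Fhl2, beside 1.63% of 32851 windows and 1.81% of genes in the whole table. The windows are printed 5′ to 3′ on the gene's strand with the box in capitals, because Fhl1 and Fhl2 are the members in which the letters were found and both rose in both lines. The Fhl1 window is chrX:56779433-56779732 on the plus strand with the box beginning 102 bases before the start. The Fhl2 windows are chr1:43196712-43197011 and chr1:43163912-43164211 on the minus strand, with boxes 96 and 31 bases before their starts. All 3 starts lie inside the gene spans given above, the upstream Fhl2 start near the 5′ end. The last 30 bases of this Fhl1 window, which follow the start, were found in no GENCODE M21 transcript of the members, while those of the other Fhl1 window were, and that window held no box.
Fhl1: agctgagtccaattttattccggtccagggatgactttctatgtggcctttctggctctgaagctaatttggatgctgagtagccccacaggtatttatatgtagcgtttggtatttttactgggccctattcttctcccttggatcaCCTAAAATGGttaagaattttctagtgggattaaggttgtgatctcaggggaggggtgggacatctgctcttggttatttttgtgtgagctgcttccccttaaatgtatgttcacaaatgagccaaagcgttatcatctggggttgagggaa
Fhl2 upstream start: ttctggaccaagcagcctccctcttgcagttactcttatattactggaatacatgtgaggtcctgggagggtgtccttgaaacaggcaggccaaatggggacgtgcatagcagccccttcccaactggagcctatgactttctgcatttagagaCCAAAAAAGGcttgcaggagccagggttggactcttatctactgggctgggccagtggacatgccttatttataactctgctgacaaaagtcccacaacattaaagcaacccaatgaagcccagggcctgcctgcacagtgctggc
Fhl2 downstream start: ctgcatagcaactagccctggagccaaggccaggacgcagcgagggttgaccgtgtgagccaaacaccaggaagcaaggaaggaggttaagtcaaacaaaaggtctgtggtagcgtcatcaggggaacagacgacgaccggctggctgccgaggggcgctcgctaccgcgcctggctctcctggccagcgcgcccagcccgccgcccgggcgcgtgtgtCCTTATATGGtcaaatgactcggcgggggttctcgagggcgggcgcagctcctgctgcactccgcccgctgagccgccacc
With 1 mismatch allowed, 5 windows of 4 members held a box, beside 21.1% of all windows, and the members added were Fhl5 and Csrp3. Their 30-base stretches, 159 and 110 bases before the start, are shown because Fhl5 rose from 0 counts and Csrp3 stayed near 0. The end of this Fhl5 window was likewise in no GENCODE M21 transcript.
Fhl5: agtcaaatttCCCTTTAAGGatattctgaa
Csrp3: tggtcacgggCTATTTTTGGcaattgtgtt
The windows of Csrp1, Pdlim5 and Pdlim7, which rose in both lines, held no box under either rule, and neither did those of Fhl3 and Pdlim1. A match is a description of the letters, and its absence says nothing of SRF outside these 300 bases.

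Fhl3, a paralogue described in muscle cells as a partner of actin and of nuclear factors (ENSMUSG00000032643, chr4:124700701-124708611, plus strand), varied least of the tested members over the 6 groups on the log2 scale. It was at 90.9, 96.4 and 92.8 CPM in AT-3 with empty vector, 46.3, 59.0 and 59.7 CPM with wild type and 68.1, 72.1 and 67.9 CPM with Y238A. In E0771 it was at 61.9, 64.4 and 65.0 CPM, 87.2, 82.7 and 84.7 CPM and 70.3, 65.6 and 69.2 CPM in the same order. The wild-type libraries were thus the lowest of AT-3 and the highest of E0771, with no overlap with the controls in either line. With wild type, Fhl3 fell by 0.76 ± 0.07 in AT-3 (adjusted p 4.60e-09) and rose by 0.41 ± 0.07 in E0771 (adjusted p 1.31e-04). Under Y238A its AT-3 level fell by 0.43 ± 0.07 (adjusted p 3.00e-05), and in E0771 the change was 0.10 ± 0.07 (adjusted p 0.393).

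Fhl5, known in testis as ACT, a coactivator of CREM, and also in vascular smooth muscle (ENSMUSG00000028259, chr4:25199908-25242876, minus strand), had 0 counts in all 6 empty-vector libraries. Wild-type AT-3 libraries held 1543, 953 and 889 counts, or 15, 11 and 10 CPM, at least 1061-fold above the control with the floor set at 3 counts over the group (adjusted p 7.86e-07). AT-3 Y238A libraries held 12, 2 and 0 counts, most of them in replicate 1, the library with a carry-over of 1.33%, and this did not pass the test (adjusted p 0.158). Wild type stood above Y238A in AT-3 by 7.95 ± 0.74, and by 10.02 ± 0.92 without that replicate. In E0771 the wild-type libraries held 22, 24 and 0 counts and the Y238A libraries 0, 2 and 0. With E0771 fitted alone these were too few for Fhl5 to be tested. The E0771 rise against empty vector was at least 15.7-fold with an adjusted p of 0.0283, and it was lost without the 4 libraries (0.0774), with no filter on low counts (0.0706) and when any of 5 of the 6 libraries compared was left out (0.0631 to 0.0908). Against Y238A the 46 counts were 22.3-fold higher by counts, with a 95% counting interval of 5.84 to 190 and an adjusted p of 0.0544. It passed with a stricter filter on low counts (0.0382), with the replicate block (0.0487) and without wild type replicate 3 (0.00352), and it did not without the 4 libraries (3.15 in place of 4.22 on the log2 scale, adjusted p 0.181), with DESeq2 (0.16), or without any 1 of the 5 other libraries compared (at most 0.17). Counting intervals and floors cover counting error alone and are too narrow here, since 61.9% to 64.6% of nonzero counts were even, as when both mates of a read pair are counted.

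Csrp1, which encodes CRP1, a smooth-muscle LIM protein that bundles actin with alpha-actinin (ENSMUSG00000026421, chr1:135720061-135752232, plus strand), had the highest CPM of the 10 genes in each group and the highest per kb. It was at 622, 630.4 and 664 CPM in AT-3 with empty vector, 3655, 4041 and 3972 CPM with wild type and 565, 547 and 543 CPM with Y238A. E0771 held 178, 191 and 174 CPM, 1249, 1141 and 1086 CPM and 171, 155 and 145 CPM in the same order. The groups of a line did not overlap, with wild type far above and Y238A just below the control. Csrp1 rose with wild type by 2.61 ± 0.06 (adjusted p 9.20e-18) in AT-3 and 2.68 ± 0.06 (adjusted p 8.15e-17) in E0771. Under Y238A it fell by 0.21 ± 0.06 in both lines, with an adjusted p of 0.00713 in AT-3 and 0.031 in E0771. The E0771 fall was the 1 Y238A call there, and it missed the threshold with E0771 fitted alone (0.0684), with library totals (0.0585), with a stricter filter on low counts (0.0539), without the 4 libraries (0.0632), and without empty vector replicate 2 (0.13), Y238A replicate 2 (0.0582) or Y238A replicate 3 (0.109).

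Csrp2, which encodes CRP2 of vascular smooth muscle and stellate cells (ENSMUSG00000020186, chr10:110919789-110939622, plus strand), was at 78.1, 85.2 and 82.6 CPM in AT-3 with empty vector, 58.7, 65.6 and 59.5 CPM with wild type and 68.0, 73.9 and 75.2 CPM with Y238A. E0771 held 15.9, 16.4 and 14.3 CPM, 25.7, 25.2 and 25.8 CPM and 14.3, 9.66 and 14.5 CPM. The wild-type libraries were the lowest of AT-3 and the highest of E0771. Csrp2 fell by 0.42 ± 0.10 with wild type in AT-3 (adjusted p 0.00113) and rose by 0.72 ± 0.10 in E0771 (adjusted p 4.33e-05). The Y238A changes of -0.18 ± 0.10 in AT-3 (adjusted p 0.165, or 0.016 with AT-3 fitted alone) and -0.28 ± 0.11 in E0771 (adjusted p 0.101, or 0.0342 without Y238A replicate 3) did not pass. Wild type was below Y238A in AT-3 by -0.24 ± 0.10 (adjusted p 0.0419), a call lost without wild type replicate 1 (0.124), the library that stood apart, without Y238A replicate 2 or 3 (0.0975 and 0.122), with DESeq2 (0.0919) or its size factors (0.0872), and with no filter on low counts (0.0506).

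Csrp3, which encodes the muscle LIM protein of heart and skeletal muscle Z-discs (ENSMUSG00000030470, chr7:48830398-48848033, minus strand), held 0 to 16 counts per library. Group totals were 4, 6 and 0 counts in AT-3 with empty vector, wild type and Y238A, and 14, 24 and 23 counts in E0771. It was too low to test with all 18 libraries. Without AT-3 wild type replicate 2 it passed the filter, and all 10 members were called for wild type against Y238A in AT-3. For Csrp3 that call rests on the 6 and 0 counts above.

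Pdlim1, which encodes CLP36, a PDZ and LIM protein of epithelial and other stress fibres (ENSMUSG00000055044, chr19:40221173-40271842, minus strand), separated the lines. In AT-3 it was at 1.83, 1.22 and 1.29 CPM with empty vector, 0.659, 0.576 and 0.349 CPM with wild type and 1.09, 1.40 and 1.36 CPM with Y238A. In E0771 it was at 71.3, 75.1 and 67.8 CPM, 63.1, 68.6 and 66.1 CPM and 72.8, 66.2 and 65.9 CPM. The AT-3 wild-type libraries lay below both other AT-3 groups, and the E0771 groups overlapped. Pdlim1 fell by 1.43 ± 0.18 with wild type in AT-3 (adjusted p 1.00e-06), and in E0771 the change was -0.12 ± 0.10 (adjusted p 0.441). With Y238A the changes were -0.17 ± 0.16 in AT-3 (adjusted p 0.421) and -0.06 ± 0.10 in E0771 (adjusted p 0.75).

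Pdlim5, which encodes ENH, a scaffold that ties protein kinase C to alpha-actinin (ENSMUSG00000028273, chr3:142239590-142395696, minus strand), showed the largest fall with Y238A that passed the test. It was at 251, 253 and 266 CPM in AT-3 with empty vector, 930.3, 974 and 971 CPM with wild type and 129.9, 126 and 129 CPM with Y238A. The E0771 levels were 61.8, 68.8 and 63.9 CPM, 262, 253 and 258 CPM and 65.7, 59.5 and 64.9 CPM. The AT-3 Y238A libraries were far below their controls, while the E0771 Y238A libraries overlapped theirs. Pdlim5 rose with wild type by 1.90 ± 0.05 in AT-3 (adjusted p 9.82e-18) and 1.99 ± 0.05 in E0771 (adjusted p 8.15e-17). Under Y238A its AT-3 level fell by 1.0 ± 0.05 (adjusted p 7.54e-13), and the E0771 change was -0.03 ± 0.05 (adjusted p 0.738). The empty-vector level of AT-3 was also that of E0771 with wild type, 257 ± 8.26 and 258 ± 4.27 CPM, and these 2 groups overlapped.

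Pdlim7, which encodes enigma, a PDLIM protein of actin filaments and Z-discs (ENSMUSG00000021493, chr13:55495795-55513676, minus strand), shared 68 exonic bases (1.4%) with the microRNA gene Mir6945 on the same strand, and by GENCODE M21 no other member overlapped the exons of another gene. It was at 218, 201 and 201 CPM in AT-3 with empty vector, 834, 906 and 849 CPM with wild type and 194, 184 and 166 CPM with Y238A. The E0771 levels were 130.3, 130.2 and 117 CPM, 502, 433 and 426 CPM and 134, 129.7 and 114 CPM. The wild-type libraries of both lines were high and did not overlap the others. Pdlim7 rose with wild type by 2.06 ± 0.08 in AT-3 (adjusted p 9.13e-15) and 1.85 ± 0.07 in E0771 (adjusted p 5.51e-13). The AT-3 fall with Y238A, 0.19 ± 0.07, was just under the threshold (adjusted p 0.0455), and it was lost without any of 5 of the 6 libraries compared (0.0611 to 0.234), the exception being Y238A replicate 1, and with library totals (0.0785) or no filter on low counts (0.0577). The E0771 Y238A change was 0.00 ± 0.07 (adjusted p 1).

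**Figure D2:**
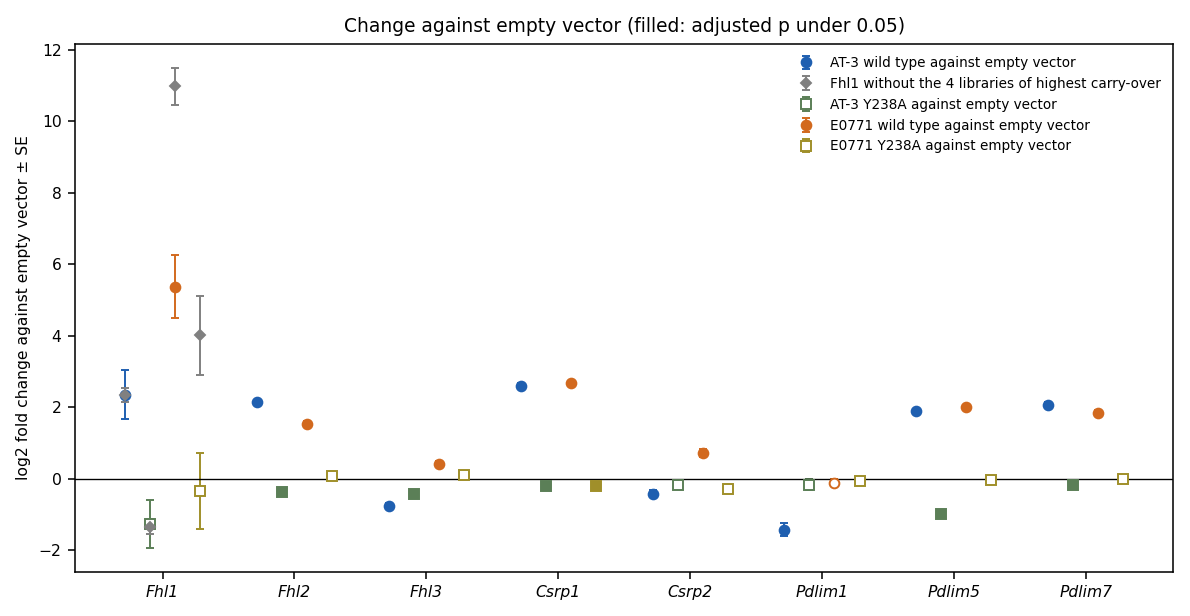
Log2 fold change against empty vector ± SE for the 8 tested members with counts in every control group, by line and construct. Filled points passed an adjusted p of 0.05, and grey diamonds are Fhl1 without the 4 libraries of highest carry-over. Fhl2, Csrp1, Pdlim5 and Pdlim7 sit between 1.54 and 2.68 with wild type in both lines, and the Fhl1 value of E0771 moves from 5.37 to 10.98.

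Wild type was also set against Y238A, using the wild-type libraries of the comparison above. In AT-3, 6 of 9 tested members were higher and 3 lower with wild type, where 66.2% of all tested genes were called (34.8% higher and 31.4% lower, or 6206 and 5599 genes, against 5173 and 7075 with library totals, and 72.9% with groups that did not overlap, against 9 of 9 members). In E0771 7 were higher and 0 lower, where 25.7% were called (12.7% higher and 13% lower, or 2268 and 2326 genes, against 1972 and 3246 with library totals, and 36.2% with groups that did not overlap, against 7 of 9 members). Csrp1 was 2.82 ± 0.06 higher in AT-3 and 2.89 ± 0.06 in E0771, Pdlim5 2.90 ± 0.05 and 2.02 ± 0.05, Pdlim7 2.25 ± 0.08 and 1.85 ± 0.07, and Fhl2 2.53 ± 0.08 and 1.47 ± 0.07. Pdlim1 was lower with wild type in AT-3 by -1.27 ± 0.18, and the E0771 difference was -0.05 ± 0.10 (adjusted p 0.775). Fhl3 was lower in AT-3 by -0.34 ± 0.07 and higher in E0771 by 0.31 ± 0.07, and Csrp2 was higher in E0771 by 1.0 ± 0.11.

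The effect of a construct was then compared between lines, as the E0771 change minus the AT-3 change. The lines differed in construct level as well. The MRTFA entry was at 5434 CPM in AT-3 and 761 CPM in E0771 with wild type. With Y238A it was at 2104 and 320 CPM. The part of this gap in the differences below was not tested. For wild type, 4 members were called higher and 1 lower, where 47.3% of all tested genes were called (23.3% higher and 24% lower, or 4149 and 4285 genes, against 5269 and 3536 with library totals). Fhl3 (1.18 ± 0.10, adjusted p 4.57e-09), Csrp2 (1.14 ± 0.14, adjusted p 2.93e-06) and Pdlim1 (1.32 ± 0.21, adjusted p 3.09e-05) differed by more than 1 log2 unit, each having fallen in AT-3. Fhl2 rose less in E0771 (-0.60 ± 0.10, adjusted p 5.12e-05). Fhl1 rose more in E0771 (3.03 ± 1.07, adjusted p 0.0339), or by 8.64 ± 0.64 without the 4 libraries; leaving out any of 9 single libraries raised this p to between 0.0528 and 0.0715. These 5 were the members called, out of 9 tested, beside the 47.3% of all tested genes given above. For Csrp1 (0.07 ± 0.09), Pdlim5 (0.09 ± 0.06) and Pdlim7 (-0.21 ± 0.10) the difference did not pass (adjusted p 0.53, 0.272 and 0.0985). With library totals in place of TMM, which moved the median of all genes by 0.13 in this comparison, Csrp1 (0.21, adjusted p 0.0389) and Pdlim5 (0.23, adjusted p 0.00319) passed, as they did without AT-3 wild type replicate 2 (0.28 and 0.28) or 3 (0.27 and 0.28). Pdlim7 passed without E0771 empty vector replicate 3 (-0.27, adjusted p 0.043) or wild type replicate 1 (-0.29, adjusted p 0.021). No difference between lines could be estimated for Fhl5, which had 0 counts in both controls.

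For Y238A, 3 members had a less negative change in E0771 than in AT-3, where 25.8% of all tested genes were called (12.2% higher and 13.6% lower). They were Pdlim5 (0.97 ± 0.07, adjusted p 1.39e-09), Fhl3 (0.53 ± 0.10, adjusted p 3.47e-04) and Fhl2 (0.46 ± 0.10, adjusted p 0.0021). For Fhl1 the difference was 0.93 ± 1.26 (adjusted p 0.672), and 5.35 ± 1.07 (adjusted p 0.00565) without the 4 libraries. For Csrp1 it was 0.01 ± 0.09, for Csrp2 -0.10 ± 0.15, for Pdlim1 0.10 ± 0.18 and for Pdlim7 0.19 ± 0.10, and these did not pass.

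The lines also differed in the absence of the construct. Between the empty-vector groups, 7 of 9 tested members were higher in AT-3 than in E0771 and 1 was lower, where 72% of all tested genes were called (36.8% higher and 35.2% lower). The groups of 8 members did not overlap, beside 75.7% of all tested genes. Fhl1 differed most, by 7.70 ± 0.94 (13.32 ± 0.84 without E0771 empty vector replicate 2), then Csrp2 by 2.40 ± 0.11, Pdlim5 by 1.99 ± 0.05, Csrp1 by 1.82 ± 0.06, Pdlim7 by 0.71 ± 0.07, Fhl3 by 0.55 ± 0.07 and Fhl2 by 0.54 ± 0.07. Pdlim1 was lower in AT-3, by -5.63 ± 0.13, or 49.4-fold. The order of the 6 group means was the same for Csrp1 and Fhl2 down to the 4th place: AT-3 wild type, E0771 wild type, AT-3 empty vector, AT-3 Y238A. Pdlim5 and Pdlim7 kept that order too, with E0771 wild type and AT-3 empty vector overlapping for Pdlim5. The E0771 empty-vector and Y238A groups came last for these 4 genes and overlapped for each but Csrp1. The AT-3 Y238A group overlapped E0771 Y238A for Fhl2. For Fhl1 the 3 AT-3 groups ranked above E0771 wild type, and for Pdlim1 the 3 E0771 groups, which overlapped, ranked above AT-3.

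Among the members of each family, levels per kb of exon were compared using the union of exons of GENCODE M21 as length, which overstates the length of a transcript. The sums hold the 10 genes alone, so Fhl4, Pdlim2, Pdlim3, Pdlim4 and Ldb3, described below, are not in them. Among the FHL members of AT-3, Fhl1 was 48.6% ± 0.477 of the summed level with empty vector, Fhl3 31.9% ± 0.826 and Fhl2 19.5% ± 0.487. With wild type the sum went from 174 ± 2.96 to 621 ± 45.3 CPM per kb, with Fhl1 at 69.0% ± 1.39 and Fhl3 at 5.24% ± 0.364. In E0771 Fhl3 led with empty vector (61.5% ± 0.999), and with wild type Fhl2 led (50.1% ± 0.633) with Fhl1 at 12.5% ± 0.563. Csrp1 was the main CSRP transcript throughout, at 89.6% ± 0.427 in AT-3 and 92.8% ± 0.255 in E0771 with empty vector and 98.6% ± 0.0586 and 98% ± 0.140 with wild type. The CSRP sum went from 364 ± 12 to 2017 ± 106 CPM per kb in AT-3 and from 99.7 ± 4.99 to 604 ± 42.3 in E0771. Of the 3 PDLIM members Pdlim7 held the largest share in each group, from 55.4% ± 1.12 in E0771 with empty vector to 71.8% ± 1.69 in AT-3 with Y238A. Pdlim1 was 29% ± 0.325 of their sum in E0771 with empty vector and 9.31% ± 0.911 with wild type, the sum having gone from 46.8 ± 2.34 to 135 ± 8.60 CPM per kb, against 0.381% ± 0.0784 in AT-3. These sums and shares are descriptions of the tested levels above.

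**Figure D3:**
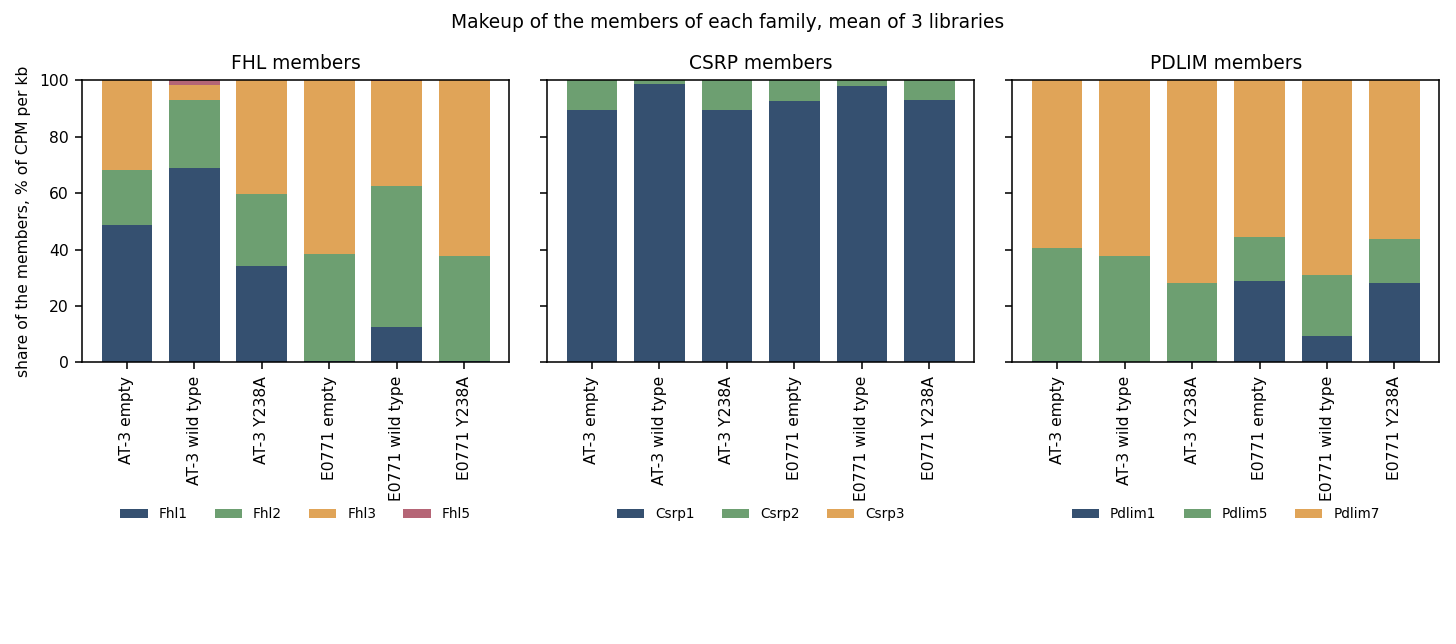
Share of each gene in the summed level (CPM per kb of exon) of the members of its family, as the mean of 3 libraries per group, for the 4 FHL, 3 CSRP and 3 PDLIM members; Csrp3 is too low to be seen. Fhl3 shrinks from 31.9% to 5.24% of the FHL sum in AT-3 with wild type, and Pdlim1 is visible in E0771 alone.

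The other genes of the FHL and PDLIM families, 5 in number, were counted next. In AT-3 with wild type 4 rose and 1 fell, and in E0771 4 rose and 0 fell. Pdlim3, which encodes ALP of skeletal and smooth muscle, rose from 0.0681 to 210 ± 2.24 CPM in AT-3, and in E0771 from 2 to 828 counts, 424-fold by counts with an interval of 117 to 3510. Ldb3, which encodes ZASP or cypher of muscle Z-discs, rose by 5.26 ± 0.19 (1.36 to 52.4 CPM) in AT-3 and 3.48 ± 0.17 (4.23 to 47 CPM) in E0771. Pdlim4, which encodes RIL, rose in AT-3 from 2 to 370 counts, 174-fold with an interval of 47.8 to 1442, while in E0771, where it was at 12.7 ± 0.635 CPM with empty vector and 17.2 ± 1.02 CPM with wild type, the change did not pass (adjusted p 0.103). Pdlim2, which encodes mystique, fell in AT-3 by 2.01 ± 0.10 and rose in E0771 by 0.49 ± 0.08, a difference between lines of 2.50 ± 0.13 (adjusted p 4.19e-12). Fhl4, a testis paralogue, rose by 1.19 ± 0.26 in AT-3 and 0.82 ± 0.27 in E0771 (adjusted p 0.0304), the latter lost with E0771 fitted alone (0.0528), with no filter on low counts (0.0515), without the 4 libraries (0.159), and without empty vector replicate 2 or 3 or wild type replicate 1 or 3 (0.0695 to 0.158). With Y238A in AT-3, Ldb3 fell by 0.77 ± 0.22 (adjusted p 0.00965, or 0.0523 without Y238A replicate 3) and the Pdlim3 rise of 3.90 ± 1.41 (adjusted p 0.0401) was 1.99 ± 1.13 (adjusted p 0.206) without the 4 libraries, and was lost with AT-3 fitted alone (0.11), with no filter (0.0577) or without any 1 control library (0.0852 to 0.115). In E0771 with Y238A, edgeR called 0 of the 5, with 2 (Fhl4 and Ldb3) at an unadjusted p under 0.05. Ldb3 (-0.46 ± 0.17) passed with DESeq2 (adjusted p 0.0328) and without the 4 libraries (-0.57, adjusted p 0.0479), and Pdlim2 (0.28, adjusted p 0.0135) and Pdlim4 (0.49, adjusted p 0.0256) passed without Y238A replicate 2, the library that stood apart.

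Among 34 tested genes of other cytoskeletal LIM proteins, such as the zyxin, paxillin, PINCH, LIM kinase and MICAL families, 16 rose and 10 fell with wild type in AT-3 (median 0.35) and 13 rose and 5 fell in E0771 (median 0.27). Lmcd1, which encodes dyxin, a nuclear cofactor in muscle, rose by 5.30 ± 0.19 (1.17 to 46.5 CPM) in AT-3 and 5.36 ± 0.32 (0.0456 to 1.96 CPM) in E0771. Lims2, which encodes PINCH2 of integrin adhesions, rose by 4.27 ± 0.16 and 2.46 ± 0.15. Tgfb1i1, which encodes Hic-5, rose by 1.82 ± 0.22 (0.397 to 1.40 CPM) in AT-3 and 1.86 ± 0.12 (25.1 to 91.5 CPM) in E0771. Nebl, which encodes nebulette, rose in E0771 from 0 to 86 counts, at least 29.4-fold, and in AT-3 its change of 0.26 ± 0.24 did not pass (adjusted p 0.334). Among genes of at least 1 CPM the largest falls were in 3 genes in both lines: Ablim1, Micall2 and Limk2. Ablim1, an actin-binding LIM protein, fell by 2.52 ± 0.12 in AT-3 and fell by 0.57 ± 0.11 in E0771. Micall2, a regulator of junction traffic, fell by 1.51 ± 0.06 in AT-3 and fell by 0.28 ± 0.06 in E0771. Limk2, a kinase of cofilin, fell by 1.28 ± 0.07 in AT-3 and fell by 0.29 ± 0.07 in E0771. With Y238A, 9 of the 34 rose and 15 fell in AT-3, and 4 rose and 5 fell in E0771, or 2 and 3 without the 4 libraries.

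Nuclear LIM genes, the LMO and LIM-homeodomain factors and their cofactors, were counted as a group of LIM genes outside the cytoskeleton. Of 15 tested, 6 rose and 4 fell with wild type in AT-3 (median 0.19), and 1 rose and 0 fell in E0771 (median 0.03, with 5 called by DESeq2). Of 13 tested partners of the 3 families, 9 rose and 3 fell in AT-3 (median 1.04) and 8 rose and 1 fell in E0771 (median 0.91). Actn2, the alpha-actinin of muscle, rose by 9.75 ± 0.39 in AT-3 (0.0218 to 20.8 CPM) and 5.04 ± 0.29 in E0771 (0.208 to 6.80 CPM), Tpm2, a tropomyosin, by 3.07 ± 0.06 and 2.33 ± 0.06, and Palld, palladin, by 2.39 ± 0.08 and 3.06 ± 0.08. Itga7, an integrin of muscle that FHL proteins bind, fell in AT-3 by 0.99 ± 0.07, Creb1, a factor that FHL proteins coactivate, by 0.23 ± 0.06 and Ctnnb1, beta-catenin, by 0.16 ± 0.04, while in E0771 Ctnnb1 fell by 0.22 ± 0.04. The share of all tested genes called is given above for each of these comparisons.

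**Figure D4:**
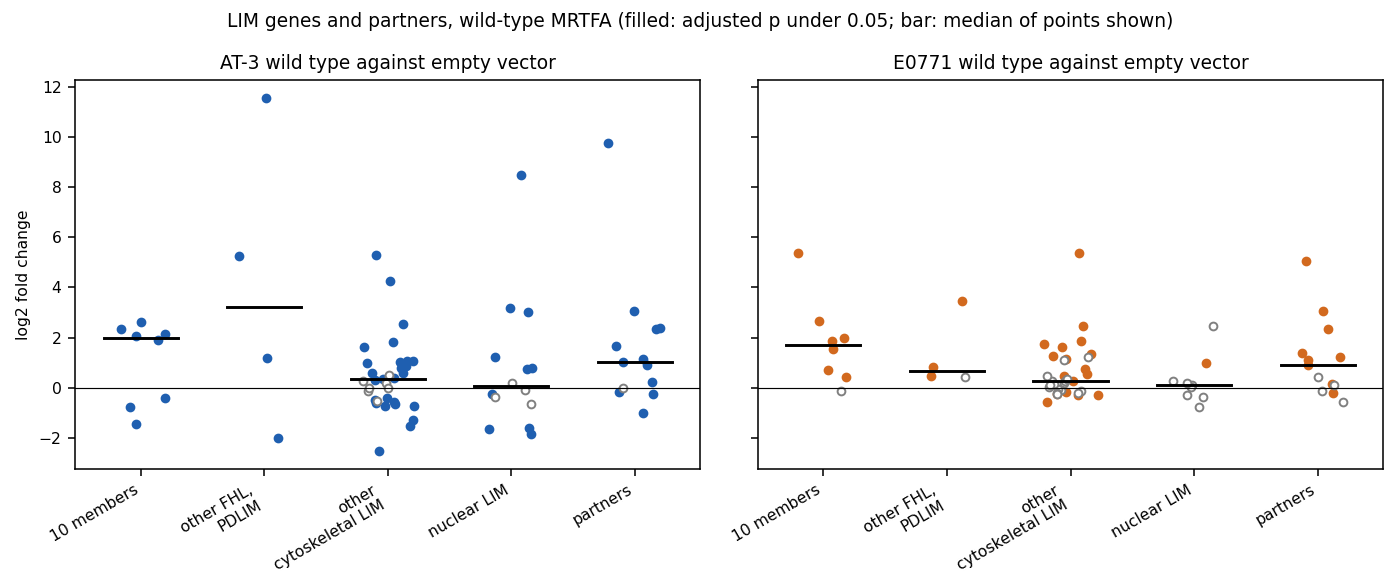
Log2 fold change with wild-type MRTFA in AT-3 (left) and E0771 (right) for the members, the other genes of their families, other cytoskeletal LIM genes, nuclear LIM genes and partners; each point is a tested gene with counts in both groups and more than 3 in the control, filled where the adjusted p was under 0.05, and the bar is the median of the points drawn. In AT-3 the members, partners and cytoskeletal LIM genes each lie on both sides of 0, with more genes called higher than lower in each list. In E0771 the members drawn lie above 0 except Pdlim1.

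The markers of other cell types moved with the constructs as well. Each sum is led by its highest genes, and some markers within a list went the other way. The summed level of 4 smooth muscle markers was 3098 to 3167 CPM in AT-3 with empty vector, 43716 to 45471 with wild type and 1417 to 2102 with Y238A, and 377 to 453, 9951 to 11073 and 321 to 415 in E0771. All 4 were at 1 CPM or more in each AT-3 group, and 1, 4 and 2 of them in the E0771 groups in that order. Of 5 skeletal muscle markers, 0 reached 1 CPM in any group, and their sum was at most 0.623 CPM in each library. Of 3 cardiac markers the sum was 26.2 to 28.5 CPM in AT-3 with empty vector, 141 to 151 with wild type and 16.4 to 17.8 with Y238A. It was at most 3.64 in E0771. Tnni3 went against this sum in AT-3, at 0.542, 0.380 and 2.12 CPM in the same order. The sum of 5 fibroblast markers was 502 to 544 CPM in AT-3 with empty vector 84.0 to 101 with wild type and 381 to 426 with Y238A, and 184 to 206, 131 to 144 and 265 to 297 in E0771 in that order. Of these, Col1a1 was at 102 CPM in E0771 with empty vector and 204 CPM with Y238A. The mammary epithelial label was checked with 7 markers: Krt8 was at 0.0573 CPM in AT-3 and 317 CPM in E0771 with empty vector, and 2 of 7 (Krt14 and Krt19) in AT-3 and 3 of 7 (Krt8, Krt14 and Epcam) in E0771 reached 1 CPM with empty vector. Krt18, Krt5 and Cdh1 were thus under 1 CPM in both lines with empty vector. The epithelial sum was 12.4 to 12.8 CPM in AT-3 with empty vector, 46.7 to 50.1 with wild type and 76.9 to 94.8 with Y238A. In E0771 it was 305 to 330, 570 to 683 and 377 to 402. Krt14, Krt18 and Epcam had lower means with wild type than with empty vector in AT-3 (Krt14 2.99 and 6.83 CPM). Of 4 leukocyte markers 1, Cd68, reached 1 CPM, and their sum was 3.03 to 3.93 CPM in AT-3 with empty vector, 21 to 21.3 with wild type and 69.9 to 75.3 with Y238A, and at most 17.2 in E0771. The sum of 4 endothelial markers was at most 3.73 CPM. In bulk RNA, fewer cells with a transcript and less of it per cell cannot be told apart, and the part of these markers in the members' changes was not tested. Srf itself was at 186 ± 6.17, 584 ± 7.69 and 92.9 ± 4.44 CPM in AT-3 and 162 ± 10.5, 376 ± 25.3 and 136 ± 17.6 CPM in E0771 with empty vector, wild type and Y238A.

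Finally, the genes whose pattern over the 6 groups was most like each member's were found by the root mean square (RMS) difference of group means of log2 CPM, each gene centred on its own mean, among 12207 genes of at least 1 CPM. Fhl2 and Pdlim7 were close to each other (0.16): Pdlim7 was the nearest of all genes to Fhl2, before Rhoj (0.17), and Fhl2 was the 3rd nearest to Pdlim7, after Larp1b (0.10) and Traf5 (0.14). Csrp1 and Pdlim5 were 0.37 apart, Pdlim5 being 7th nearest to Csrp1 after genes led by Fas (0.21) and Msrb1 (0.27), and Csrp1 being 5th nearest to Pdlim5 after genes led by Msrb3 (0.26) and Vcl (0.28), the latter encoding vinculin. Fhl1 had no close match, with Cnn1, the smooth muscle calponin, at 1.03 and Epas1 at 1.28 against an RMS of 4.72 for Fhl1 itself. Fhl3, with an RMS of 0.26 of its own, was nearest to Exoc6 (0.10) and Sh3rf1 (0.12), Csrp2 to Ttll7 (0.16) and Dusp1 (0.22), Pdlim1 to Pcdhgb1 (0.18) and Cd40 (0.20), and Fhl5 to Zfp612 (0.23) and Gm48503 (0.32). These distances describe 6 group means from the same libraries that gave the levels above.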

How the data were processed

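The deposited table holds raw counts per gene. The submitters' processing notes name STAR, featureCounts and the GRCm38 build, and the labels' protocols name Qiagen RNeasy for RNA and, for libraries, NuGen's Universal Plus mRNA kit. Tool versions, annotation release and strandedness are not given in the sources used here, so reads of overlapping genes could not be told apart. Counts were analysed with edgeR 4.0.16 in R 4.3.3: filterByExpr (minimum count 10, minimum total 15), TMM scaling, 6 group means, 12 residual degrees of freedom, the robust quasi-likelihood F test and Benjamini-Hochberg adjustment over 17841 genes, with a threshold of 0.05. The test was run on simulated data with 200 genes changed in AT-3 with wild type, far fewer than were called there. The simulation therefore does not check the scaling under changes as wide as those measured. Members and lists were chosen with earlier results of these data known, and those lists support nothing on their own. Named beside the members were the other family genes, up to 3 genes per direction and line from the cytoskeletal LIM and partner lists, and the 2 genes of most similar pattern. Alternatives were DESeq2 1.42.0, other scalings and filters, each line alone, a replicate block, and libraries left out. Among these were the 4 called highest in carry-over, a raised level of another group's genes. They were replicate 1 of both Y238A groups, and replicate 2 of the E0771 empty-vector and wild-type groups. Where a group had 0 counts, the fold is a bound computed at a floor of 3 counts over the group. By the correlation of deviations between libraries of 1 number, E0771 wild type and empty vector went together in each replicate (0.419, 0.694 and 0.503). E0771 Y238A did so in replicate 3 alone, at 0.459 with empty vector and 0.466 with wild type. In replicate 1 these were -0.418 and -0.359. In the comparisons with AT-3 they were 0.0826 or less.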

Additional observations from a re-analysis of the deposited data

Results flagged for a closer look

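For 8 results the change with a construct differed between the lines by edgeR's test of the difference, E0771 minus AT-3. With wild-type MRTFA these were Fhl3 (1.18), Csrp2 (1.14), Pdlim1 (1.32), Fhl2 (-0.60) and Fhl1 (3.03). Fhl3 and Csrp2 fell in AT-3 and rose in E0771, so their direction turned between lines, while Fhl1 and Fhl2 rose in both. The Fhl1 value was 8.66 without E0771 empty vector replicate 2, and its call was lost when any of 9 other libraries was left out. With Y238A they were Pdlim5 (0.97), Fhl3 (0.53) and Fhl2 (0.46), each of which fell in AT-3 and did not pass the test in E0771. Both constructs were measured at a higher level in AT-3 than in E0771, and the part of that gap in these differences was not tested.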

How the results depend on the processing

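Among values of single members under the alternatives, 1146 kept their side of the threshold (27 of these, with 0 of them called, turned sign), 37 lost a call, 19 gained one and 1 turned on gaining a call: Fhl1 with Y238A in E0771 was 5.29 without empty vector replicate 2 (-1.63 to 5.29 with single libraries left out). Of the counts, members called with Y238A in E0771 went from 1 to 0 with each line fitted alone, library totals, a stricter filter (a mean of 50 counts, and 1 CPM or more in 3 libraries) and without the 4 carry-over libraries, and were 0 to 1 with single libraries left out. All genes called there numbered 2149, with 843 without the 4 libraries and 1251 to 2340 with single libraries left out, and for wild type in E0771 4364, 2762 and 3205 to 3828. With single libraries left out, members called numbered 9 to 9 for wild type in AT-3, 4 to 5 for Y238A in AT-3, 7 to 8 for wild type in E0771, 8 to 10 and 7 to 8 for wild type against Y238A in AT-3 and E0771, 8 to 8 for AT-3 against E0771, and 4 to 7 and 3 to 4 for the wild-type and Y238A differences between lines. The count of 10, without AT-3 wild type replicate 2, includes Csrp3, which was not tested with all libraries and held few counts. The causes were not tested. DESeq2 gave Fhl1 and Pdlim3 no adjusted p, so its counts lack those genes. No call of a member turned direction with library totals, which moved the median of all genes by -0.14 for wild type against empty vector in AT-3 and by -0.16 against Y238A. With the replicate block, wild type against empty vector in E0771 kept 8 members called. Elsewhere the block ended the Csrp2 call of wild type against Y238A in AT-3 (adjusted p 0.0638). It added Fhl5 for wild type against Y238A in E0771 (0.0487) and the Pdlim7 difference between lines (-0.22, adjusted p 0.0226). Depth limits Fhl5 in E0771 and Csrp3, which rest on 0 to 24 counts per library.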
